A study of Homo sapiens with 6 samples.

Results

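The nuclear genes of the respiratory chain were examined in MOLM-13 cells, a human line established from acute myeloid leukaemia. The cells had been kept for 20 h with DB2115 at 5 µM, or with vehicle alone (DMSO, 0.001%). The labels give DB2115 only by this code name, and the series title mentions PU.1, an ETS-type transcription factor (gene SPI1). The members were chosen by symbol alone. They are the protein-coding genes named as subunits NDUFA, NDUFB, NDUFC, NDUFS or NDUFV with a number, SDHA to SDHD, UQCR, COX4 to COX8 and ATP5. This gave 89 of the 58381 gene identifiers, with 39 in complex I, 4 in complex II, 9 in complex III, 17 in complex IV and 20 in complex V. Another 179 noncoding or pseudogene identifiers that match the symbols were left out. Of the 89 members, 81 passed the filter on low counts and were tested. The symbols follow gene names and not structures. NDUFA4 is known as a subunit of complex IV, ATP5IF1 is an inhibitor of ATP synthase and COX7A2L a factor that joins complexes III and IV, whereas CYC1 and NDUFAB1 lie outside the symbol pattern.

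Each group has 3 labelled libraries. The third column of counts per group, however, was close to the sum of the other columns. Among genes with at least 200 counts in it, it equalled that sum within 1% in 98.5%. The same held for 79 of 80 (vehicle) and 80 of 80 (DB2115) members with at least 200 counts. It was left out, so all values rest on n = 2 libraries per group, called A and B. The labels do not name separate cultures, and the p-values therefore reflect nothing beyond the spread of these libraries, which may be technical. Total counts ran from 36547900 to 42446253, so that 3 counts stood for 0.0725 to 0.0854 CPM (counts scaled to library size with TMM factors). Members took 1.20% to 1.26% of all counts in vehicle and 1.04% to 1.10% with DB2115, while genes of the mitochondrial genome, ribosomal RNA included, took 4.91% to 5.64% and 6.93% to 7.65%. Of 8 myeloid leukaemia markers, CD33, FLT3, SPI1 and PTPRC among them, all were present, at 1103 to 1140 CPM in sum in vehicle and 792 to 856 CPM with DB2115. They went both ways, with 4 higher (CD33 and MPO among them), 3 lower (FLT3, LYZ and PTPRC) and SPI1 not called. Of the erythroid markers, HBB and ALAS2 stayed below 1 CPM throughout, and EPOR went from 20.7 to 22.6 CPM (0.13, not called). The 5 lymphoid markers summed to 1.51 and 1.57 CPM in vehicle and 14.0 CPM in both DB2115 libraries, led by CD79A, with CD3D and MS4A1 below 1 CPM throughout. The 5 stromal and epithelial markers summed to 75.9 to 86.1 and 206 to 216 CPM, most of it from PECAM1, which myeloid cells also express. The part of these marker changes in the results below was not tested.

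The respiratory chain sits in the inner mitochondrial membrane. Complexes I and II pass electrons from NADH and succinate to ubiquinone, complex III passes them on to cytochrome c, and complex IV to oxygen. Complexes I, III and IV pump protons, and complex V, the ATP synthase, uses the resulting gradient to make ATP. Most subunits are encoded in the nucleus and imported, while a few core subunits of complexes I, III, IV and V are encoded by mitochondrial DNA, so that the complexes are built from products of both genomes.

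Nuclear respiratory chain genes were lower with DB2115 in all 5 complexes, by small amounts. Of the 81 members tested, 61 fell, 4 rose and 16 were not called, at an adjusted p below 0.05 (edgeR's quasi-likelihood test, Benjamini-Hochberg over 17219 genes). Over all genes tested, 31.3% were called lower and 32.7% higher, 64.1% in either direction. Among the genes that averaged 20 CPM or more, as 77 members did, 46.3% were called lower, against 75.3% of the members tested. The median log2 fold change was -0.36 over the members and 0.03 over all genes tested. Over the genes that averaged 20 CPM or more it was -0.12. A fall of at least 1.5-fold was called in 18 members (22.2% of those tested), against 18.2% of all genes and 22.2% of the genes that averaged 20 CPM or more. No member was called higher by that much, against 23.7% of all genes and 1176 of the 7571 genes that averaged 20 CPM or more. A change of at least 2-fold was called for NDUFA4L2 and NDUFC1 only, both lower. By contrast, 27.0% of all genes and 1327 of those 7571 genes changed that much. In 64 members both DB2115 libraries lay below both vehicle libraries, and in 8 members above them. The shares were 39.4% and 42.0% over all genes, and the counts 3960 and 2776 among those 7571 genes. In these bulk libraries, fewer cells of a type and less RNA per cell cannot be told apart, and every change is relative to the RNA sequenced. With upper-quartile factors or total counts in place of TMM, 7 members were called higher in place of 4, and 51 and 52, respectively, were called lower in place of 61.

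**Figure D1:**
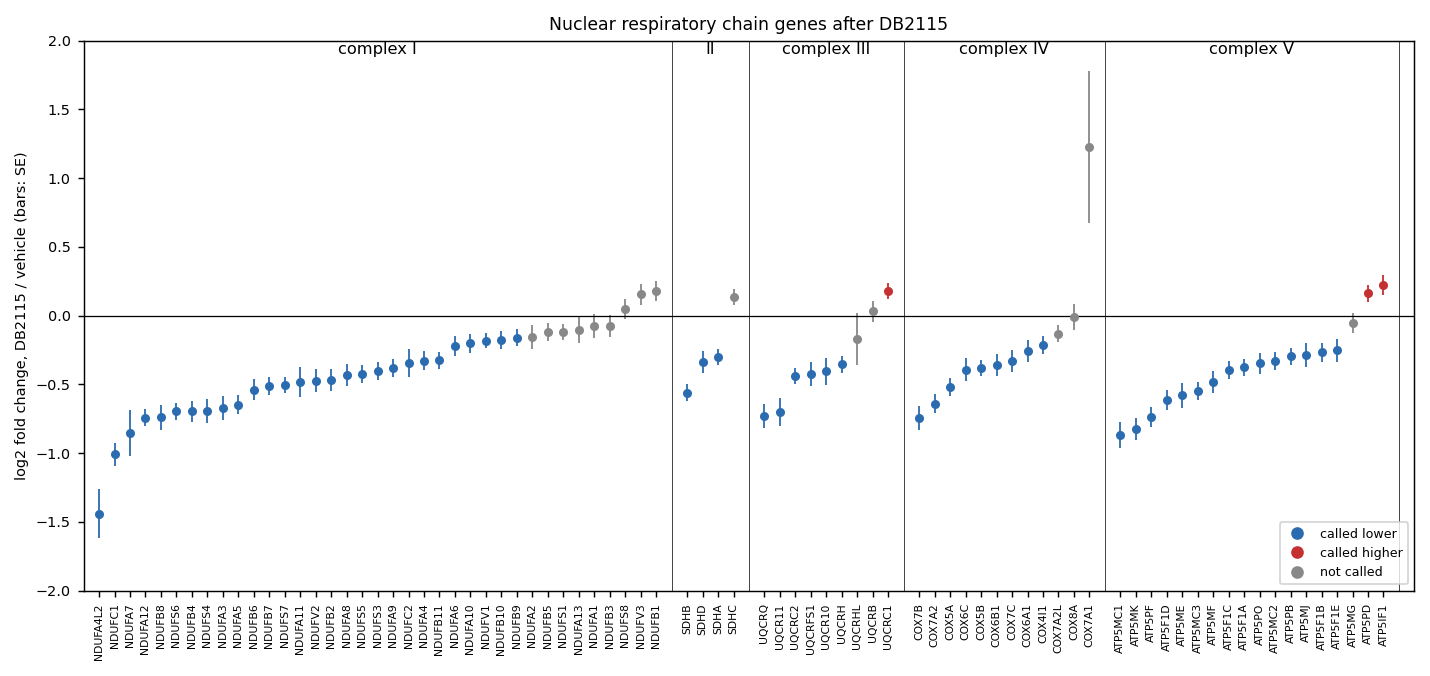
Log2 fold change of DB2115 over vehicle for 80 of the 81 members tested (y axis; bars, standard error), ordered within complexes I to V (x axis) and coloured by call. Of the members, 61 lie below 0 as called lower, and UQCRC1, ATP5PD and ATP5IF1 are drawn as called higher; COX7A1, at the top, is not called.

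The complexes differed little in their medians. The median log2 fold change was -0.39 in complex I (28 of 38 tested members lower, 1 higher), -0.32 in complex II (3 of 4 lower, none higher), -0.41 in complex III (6 of 9 lower, 1 higher), -0.35 in complex IV (9 of 12 lower, none higher) and -0.36 in complex V (15 of 18 lower, 2 higher). Fold changes were also corrected for their trend with the GC content and length of the longest annotated transcript of each gene. That transcript need not be the one expressed, and it had 5608 bases for NDUFA5 and 3665 for ATP5F1E. After the correction the medians of complexes I to V were -0.28, -0.19, -0.21, -0.28 and -0.29. The median moved from -0.36 to -0.28 over all members and from 0.03 to 0.08 over all genes tested. With this correction 60 members were below 0 in place of 71. The sign turned in 15 members, of which 8 had been called lower, 1 higher and 6 not at all. Differences between complexes were not tested.

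Promoter sequences were examined because the transcription factors NRF1, GABP (which binds ETS sites) and YY1 are textbook regulators of these genes, and PU.1 belongs to the ETS family. RefSeq windows of 300 bases on GRCh38.p14, from 250 before to 50 after the start, were at hand for 70 members, 65 of them tested. The letters TGCGCA, the core of an NRF1 site, stood in 29.2% of the tested members' windows and in 13.2% of the windows of all genes tested. The ETS letters CCGGAAG stood in 30.8% against 18.7%, the YY1 letters AAGATGGC in 16.9% against 5.2%, and the longer NRF1 palindrome in 6.2% against 2.3%. The PU.1-type letters GAGGAAGT were rare in both, in 3.1% against 2.7%. The E-box CACGTG bound by MYC stood in 10.8% against 10.2%. The GC box GGGCGG stood in 63.1% against 67.6%. The genes of this comparison were not matched to the members for expression level. The median GC content of the windows was 61.0% in the tested members and 65.0% in all genes tested. All motifs were searched on both strands, and the NRF1 core can overlap the longer palindrome. The windows of 6 members are shown, with these letters in capitals, to compare a member of each complex that fell with UQCRC1, which rose. They lie at chr3:120596086-120596385 (plus strand) for NDUFB4, chr1:17053983-17054282 (minus strand) for SDHB, chr19:1605413-1605712 (minus strand) for UQCR11, chr2:97645812-97646111 (plus strand) for COX5B, chr10:103396426-103396725 (minus strand) for ATP5MK and chr3:48609597-48609896 (minus strand) for UQCRC1. Capitals mark the NRF1 core and palindrome, the ETS letters (CCGGAAG, or CTTCCGG where they lie on the other strand) and the YY1 letters. Every window shown holds some of these letters, so the choice does not stand for all members that fell. Of the 51 members with a window that fell, 18 have the NRF1 core, 14 the ETS letters and 10 the YY1 letters. The windows of NDUFC1, COX7B, COX7A2 and ATP5MC1, which also fell, hold none of the marked letters.
NDUFB4: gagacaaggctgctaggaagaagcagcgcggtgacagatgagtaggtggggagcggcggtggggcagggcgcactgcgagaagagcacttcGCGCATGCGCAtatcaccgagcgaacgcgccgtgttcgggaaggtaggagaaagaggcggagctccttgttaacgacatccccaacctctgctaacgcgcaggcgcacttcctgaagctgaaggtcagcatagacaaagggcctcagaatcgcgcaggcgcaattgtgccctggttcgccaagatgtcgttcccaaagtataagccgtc
SDHB: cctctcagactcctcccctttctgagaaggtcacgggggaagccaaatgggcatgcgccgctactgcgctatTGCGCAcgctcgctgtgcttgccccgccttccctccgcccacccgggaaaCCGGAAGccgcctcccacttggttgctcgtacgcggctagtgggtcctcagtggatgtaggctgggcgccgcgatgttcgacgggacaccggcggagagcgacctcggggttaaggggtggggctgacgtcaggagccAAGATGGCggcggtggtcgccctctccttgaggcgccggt
UQCR11: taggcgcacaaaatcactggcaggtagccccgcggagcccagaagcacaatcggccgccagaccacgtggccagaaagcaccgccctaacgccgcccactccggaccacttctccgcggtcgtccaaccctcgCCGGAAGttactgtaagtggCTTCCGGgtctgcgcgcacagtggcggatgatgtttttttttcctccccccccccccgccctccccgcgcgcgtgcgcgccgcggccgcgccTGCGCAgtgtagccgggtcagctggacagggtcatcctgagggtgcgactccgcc
COX5B: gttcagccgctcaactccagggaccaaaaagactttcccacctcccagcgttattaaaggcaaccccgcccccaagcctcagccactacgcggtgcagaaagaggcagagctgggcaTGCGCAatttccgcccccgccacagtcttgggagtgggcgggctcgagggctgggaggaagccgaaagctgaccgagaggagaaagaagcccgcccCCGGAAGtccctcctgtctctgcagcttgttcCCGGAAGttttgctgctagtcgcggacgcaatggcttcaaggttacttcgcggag
ATP5MK: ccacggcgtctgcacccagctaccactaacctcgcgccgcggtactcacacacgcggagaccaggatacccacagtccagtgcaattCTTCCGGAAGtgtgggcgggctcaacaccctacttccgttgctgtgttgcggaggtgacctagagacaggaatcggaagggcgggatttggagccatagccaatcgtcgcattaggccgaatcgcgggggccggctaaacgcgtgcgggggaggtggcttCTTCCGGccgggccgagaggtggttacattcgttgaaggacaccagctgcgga
UQCRC1: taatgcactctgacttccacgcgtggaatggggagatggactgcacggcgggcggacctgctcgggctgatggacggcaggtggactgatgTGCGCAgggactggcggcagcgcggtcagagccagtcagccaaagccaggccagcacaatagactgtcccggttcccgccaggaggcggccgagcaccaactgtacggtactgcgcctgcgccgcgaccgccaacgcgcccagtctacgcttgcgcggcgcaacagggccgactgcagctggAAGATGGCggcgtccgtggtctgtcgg

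The NDUFB4 window holds the NRF1 palindrome, joined to the core. SDHB has an NRF1 core, an ETS and a YY1 match, UQCR11 and COX5B have 2 ETS matches and an NRF1 core each, and ATP5MK has 3 ETS matches, of which a pair overlaps. UQCRC1, although it rose, has an NRF1 core and a YY1 match as well. Of 19 tested members with the NRF1 core, 18 fell, with a median log2 fold change of -0.43, and of 46 without it 33 fell, with a median of -0.36. None of the 11 members with a window that were not called has the NRF1 core or the YY1 letters. With the YY1 letters 10 of 11 members fell, and without them 41 of 54. With the ETS letters 14 of 20 fell (median -0.36), and without them 37 of 45 (median -0.395). With the GC box 30 of 41 fell (median -0.33), and without it 21 of 24 (median -0.51). All 7 members with an E-box fell (median -0.58), and 44 of 58 without it (median -0.36). Of all 11296 tested genes with a window, 4105 were called lower. The count was 687 of 1495 with the NRF1 core and 967 of 2110 with the ETS letters. It was 264 of 592 with the YY1 letters, 476 of 1150 with an E-box and 2771 of 7638 with the GC box. These are counts of letters in a window, with no test, and they show neither binding nor its absence.

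Complex I is the NADH dehydrogenase, whose 7 nuclear core subunits carry the flavin and the iron-sulfur clusters, while the accessory subunits surround and stabilise them. Of these 7, 4 fell (median -0.18), and of 31 accessory members 24 fell (median -0.42). The difference between these medians was not tested, and it was -0.29 against -0.28 after the GC and length trend was removed.

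NDUFS7, which carries the terminal iron-sulfur cluster, fell from 200 and 191 CPM to 140 and 135 CPM (-0.50, SE 0.06, edgeR adjusted p = 7.49e-06). NDUFS3, a subunit of the peripheral arm, fell by 0.41 on the log2 scale, and NDUFV2, of the NADH-oxidising module, by 0.47. NDUFV1, which binds NADH and the flavin, stood at 263 and 268 CPM in vehicle and 235 and 233 CPM with DB2115 (-0.18, edgeR adjusted p = 0.0118), a fall that was no longer called with upper-quartile factors (adjusted p = 0.177), without vehicle library A (adjusted p = 0.0501) or without vehicle library B (adjusted p = 0.0775). NDUFS1 (-0.12, edgeR adjusted p = 0.098), the largest core subunit, and NDUFS8 (0.05, edgeR adjusted p = 0.598), an iron-sulfur protein, were not called. The vehicle and DB2115 libraries of NDUFS8 overlapped. With the GC and length trend removed, NDUFS7 stood at -1.07, NDUFV1 at -0.58, NDUFV2 at -0.12, NDUFS8 at -0.29 and NDUFS1 at 0.08.

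The largest falls of all members were among those named as accessory subunits of complex I. NDUFA4L2, a paralog of NDUFA4 that, like NDUFA4, is counted here by its name and not by its place in the structure, and that is known for its induction in hypoxia, was low, at 6.83 and 7.99 CPM in vehicle, and fell to 3.08 and 2.39 CPM (-1.44, SE 0.18, edgeR adjusted p = 1.18e-05). NDUFC1 (ENSG00000109390.11, chromosome 4, 139266880 to 139302551, GENCODE 29), a small membrane-arm subunit, stood at 34.2 and 34.6 CPM in vehicle and at 18.1 and 16.1 CPM with DB2115 (-1.01, SE 0.09, edgeR adjusted p = 3.45e-07). Vehicle libraries were close to each other and both DB2115 libraries were far below them. NAA15, an acetyltransferase gene that overlaps NDUFC1 on the other strand without sharing exon bases, fell as well, from 216 to 98.9 CPM (-1.13). NDUFA12, a late-assembling subunit, went from 83.5 and 84.8 to 51.2 and 49.4 CPM (-0.74, edgeR adjusted p = 3.77e-07). NDUFS6, a zinc-binding accessory subunit, went from 162 and 151 to 98.2 and 94.9 CPM (-0.70, edgeR adjusted p = 5.72e-07). NDUFA7, NDUFB8, NDUFB4, NDUFS4, NDUFA3 and NDUFA5 also fell by at least 1.5-fold, with log2 fold changes from -0.86 to -0.65. After the GC and length trend was removed, NDUFA5 went from -0.65 to 0.03, NDUFB4 to -0.28 and NDUFS4 to -0.44, and, among the smaller falls, NDUFB9 stood at 0.09 and NDUFB10 at -0.46. NDUFA7, however, lay at only 7.13 CPM in vehicle and shares 6.3% of its exon bases with RPS28 on the other strand, a gene at 863 CPM that fell too (-0.47), so its count is uncertain. The smallest called falls were those of NDUFB9 (-0.16), NDUFB10 (-0.18), NDUFV1 (-0.18) and NDUFA10 (-0.20), and those of NDUFB9, NDUFB10 and NDUFA10 were called in 7, 6 and 7 of the 13 other settings with a test, and not without vehicle library A, vehicle library B or DB2115 library B. Not called were NDUFA1, NDUFA2, NDUFA13, NDUFB1, NDUFB3, NDUFB5 and NDUFV3, with log2 fold changes from -0.15 to 0.18.

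Complex II, succinate dehydrogenase, is the complex with no mitochondrially encoded subunit, and it also belongs to the tricarboxylic acid cycle. SDHB, the iron-sulfur subunit, fell the most, from 97.9 and 96.3 CPM to 66.2 and 65.5 CPM (-0.56, SE 0.06, edgeR adjusted p = 3.7e-06). Both groups were tight, 97.1 ± 1.13 and 65.8 ± 0.523 CPM (SD, n = 2). SDHA, the flavoprotein, went from 348 and 334 to 276 and 278 CPM (-0.30, SE 0.06, edgeR adjusted p = 0.000524). SDHD, a membrane anchor, went from 158 and 147 to 130 and 110 CPM (-0.34, SE 0.08, edgeR adjusted p = 0.00214). The other anchor, SDHC, moved the other way, from 146 and 142 to 162 and 155 CPM, without being called (0.13, SE 0.06, edgeR adjusted p = 0.0639). It was called higher with upper-quartile factors (0.23, adjusted p = 0.00397). SDHD stood at 0.11 and SDHA at -0.53 after the GC and length trend was removed. The annotated SDHA pseudogenes held counts equal to 15.2% of those of SDHA in vehicle and 19.1% with DB2115, so part of its reads may have been assigned to copies.

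Complex III, the cytochrome bc1 complex, has 3 core subunits among the members, UQCRFS1, the Rieske iron-sulfur protein, and the core proteins UQCRC1 and UQCRC2. The core proteins moved in opposite directions. UQCRC2 fell from 172 and 166 CPM to 124 and 125 CPM (-0.44, SE 0.06, edgeR adjusted p = 2.12e-05), whereas UQCRC1 (chromosome 3, 48599002 to 48610976) rose from 323 and 315 CPM to 358 and 366 CPM (0.18, SE 0.06, edgeR adjusted p = 0.0141). In both genes the groups did not overlap. The rise of UQCRC1 was no longer called without vehicle library A (0.19, adjusted p = 0.08), without vehicle library B (0.14, adjusted p = 0.174) or without DB2115 library B (0.155, adjusted p = 0.0787), and its value was -0.17 after the GC and length trend was removed. That trend also took UQCRC2 to -0.21. COL7A1, a collagen gene that lies 3735 bases from UQCRC1 on the same strand, went from 1.01 to 78.8 CPM (6.30).

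UQCRFS1 fell from 217 and 215 CPM to 179 and 143 CPM (-0.42, SE 0.09, edgeR adjusted p = 0.000745), with DB2115 libraries that lay further apart than the vehicle ones, and the fall was not called without vehicle library B (adjusted p = 0.0542). Its pseudogenes held counts equal to 8.4% and 9.5% of its own. UQCRQ, a small subunit near the cytochrome b core, fell from 106 and 96.9 CPM to 67.2 and 54.8 CPM (-0.73, SE 0.09, edgeR adjusted p = 1.02e-05). UQCR11, a small peripheral subunit whose promoter is shown above, fell from 139 and 126 CPM to 92.2 and 70.8 CPM (-0.70, SE 0.10, edgeR adjusted p = 5.02e-05). With the GC and length trend removed, UQCRQ stood at -0.71 and UQCR11 at -0.83. UQCR10 (-0.41) and UQCRH (-0.35), the hinge protein between cytochrome c1 and cytochrome c, fell as well. UQCRB, which helps to hold ubiquinone, was not called (0.03). UQCRHL, an intronless near-identical copy of UQCRH, had 141 to 159 counts per library and was not called (-0.17), and reads of the pair cannot be assigned with certainty.

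Complex IV, cytochrome c oxidase, had its largest falls in COX7B and COX7A2. COX7B went from 95.7 and 85.6 CPM to 58.9 and 49.0 CPM (-0.75, SE 0.09, edgeR adjusted p = 7.78e-06). COX7A2, the widely expressed isoform of subunit 7A, went from 188 and 174 CPM to 121 and 111 CPM (-0.64, SE 0.07, edgeR adjusted p = 2.61e-06). COX5A, which contacts the regulatory subunit 4, went from 194 and 179 CPM to 135 and 126 CPM (-0.52, SE 0.07, edgeR adjusted p = 1.37e-05). The groups did not overlap in any of these. After the GC and length trend was removed, COX7B stood at -0.30, COX7A2 at -0.34, COX5A at -0.42 and COX5B at -0.47. With the same correction COX6C stood at -0.05, COX7C at 0.22, COX6B1 at -0.56 and COX6A1 at -0.40. COX5B (-0.38), the zinc-binding subunit, COX6C (-0.39), COX6B1 (-0.36), COX7C (-0.33), COX6A1 (-0.26) and COX4I1 (-0.21) fell less. The falls of COX6A1 and COX4I1 were lost with upper-quartile factors (adjusted p = 0.0852 and 0.122), and, for COX6A1, without either vehicle library and without DB2115 library B (adjusted p from 0.0817 to 0.0939). The fall of COX4I1 was also lost without vehicle library A (adjusted p = 0.122) and without DB2115 library B (adjusted p = 0.0545). COX8A, at 241 and 224 CPM in vehicle and 259 and 203 CPM with DB2115, was not called (-0.01), and its sign turned with upper-quartile factors (0.08) and total counts. Without DB2115 library A it was called lower (-0.21, adjusted p = 0.012). COX7A2L was not called either (-0.13, edgeR adjusted p = 0.0759; 0.20 with the trend removed).

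Several subunits of complex IV exist as paralogs of which muscle, heart, lung or testis use the second form. The common form was by far the more abundant in every pair. COX4I2, the lung and hypoxia form, and COX6A2 and COX7B2, the muscle and testis forms, had no count in any library, which allows a share of their pair's counts of up to 0.0227%, 0.0466% and 0.148% on a floor of 3 counts, in DB2115 library B, where these pairs had the fewest counts. The testis forms COX6B2 (1 and 0 counts in vehicle, 4 and 2 with DB2115) and COX8C (1 and 2, then 4 and 8) were too low to test. COX7A1, the muscle and heart form, had 4 and 16 counts in vehicle and 22 and 28 counts with DB2115. Its share of the COX7A1 and COX7A2 counts was 0.0605% and 0.223% in vehicle and 0.442% and 0.606% with DB2115, with exact 95% binomial intervals of 0.0165% to 0.155%, 0.127% to 0.362%, 0.277% to 0.669% and 0.403% to 0.875%. The intervals cover counting error only, and those of vehicle library B and DB2115 library A overlapped. The gene was not called (1.23, SE 0.55, edgeR adjusted p = 0.0699), but was called without vehicle library B (2.36, adjusted p = 0.0402) and by limma-voom (adjusted p = 0.0487). In the pair of NDUFA4 and NDUFA4L2 the share of the second went the other way, from 6.28% and 7.53% of counts to 3.54% and 3.08%, with exact 95% intervals that did not overlap between the groups. NDUFA4 itself fell by 0.33 on the log2 scale, a value of 0.17 after the GC and length trend was removed. Shares were not tested.

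**Figure D2:**
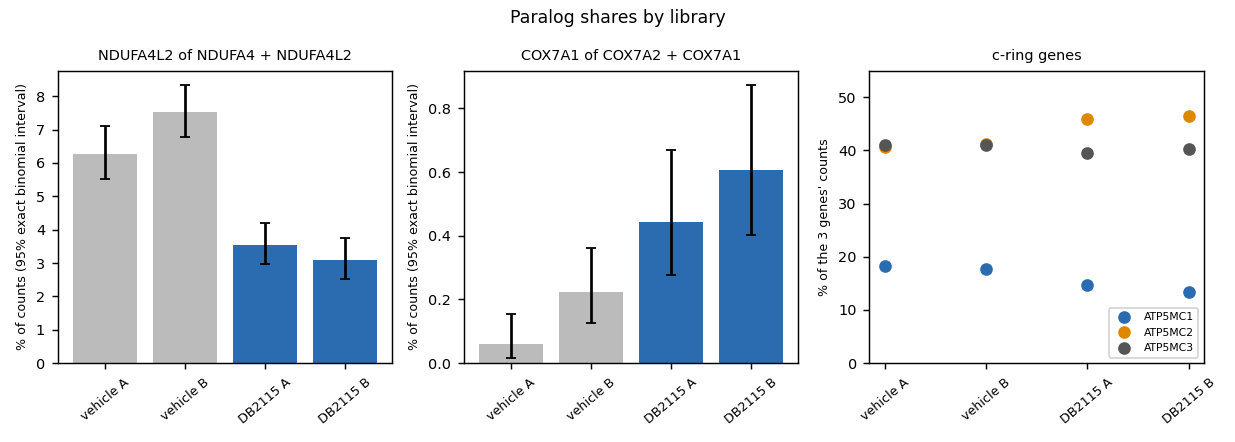
Share of counts (y axis, percent) per library (x axis) for NDUFA4L2 within NDUFA4 and NDUFA4L2, for COX7A1 within COX7A1 and COX7A2 (bars, with exact 95% binomial intervals for counting error), and for the 3 c-ring genes of ATP synthase (points). NDUFA4L2 is at 6.28% and 7.53% in vehicle and 3.54% and 3.08% with DB2115, and ATP5MC1 goes from 18.2% and 17.7% to 14.6% and 13.3%.

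Complex V, the ATP synthase, had the largest share of members that fell, 15 of 18. All 5 genes of the F1 head and its central stalk fell, ATP5F1A to ATP5F1E, although ATP5F1E went from -0.25 to 0.30 and ATP5F1C from -0.39 to -0.11 after the GC and length trend was removed. ATP5F1B, the catalytic beta subunit and the most abundant member, went from 1908 and 1795 CPM to 1563 and 1513 CPM (-0.27, SE 0.07, edgeR adjusted p = 0.00363). On the scale of CPM per kilobase of the longest transcript it was also the highest of all members, at 1007 in vehicle and 836 with DB2115. ATP5F1D, the delta subunit of the stalk, fell the most of the 5, from 247 and 244 CPM to 172 and 148 CPM (-0.62, SE 0.07, edgeR adjusted p = 6.62e-06). With that trend removed ATP5F1D stood at -1.05.

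The c-ring, the rotor in the membrane, is encoded by 3 genes whose mature protein is the same. ATP5MC1 (ENSG00000159199.13, chromosome 17, 48892765 to 48895871) fell the most, from 131 and 119 CPM to 75.8 and 60.8 CPM (-0.87, SE 0.09, edgeR adjusted p = 2.85e-06). ATP5MC3 went from 294 and 275 CPM to 205 and 184 CPM (-0.55, SE 0.07, edgeR adjusted p = 1.03e-05), and ATP5MC2 from 291 and 277 CPM to 238 and 213 CPM (-0.33, SE 0.07, edgeR adjusted p = 0.000715). The falls were therefore of unequal size. The share of ATP5MC1 in the counts of the 3 genes was 18.2% and 17.7% in vehicle and 14.6% and 13.3% with DB2115, while that of ATP5MC2 was 40.7% and 41.3%, and 46.0% and 46.5%. The share of ATP5MC3 stayed between 39.5% and 41.1%. After the GC and length trend was removed, ATP5MC1 stood at -1.04, ATP5MC2 at -0.61 and ATP5MC3 at -0.18.

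The peripheral stalk, which holds the head still, was split. ATP5PF (coupling factor 6) fell from 105 and 94.6 CPM to 62.5 and 57.2 CPM (-0.73, SE 0.07, edgeR adjusted p = 1.54e-06), and ATP5PB (-0.30) and ATP5PO (-0.35) fell too. ATP5PD, the stalk's d subunit, was called higher, from 115 and 108 CPM to 126 and 123 CPM (0.16, SE 0.06, edgeR adjusted p = 0.034). It was not called by DESeq2 (adjusted p = 0.0692), with low counts left unfiltered (adjusted p of 0.0755), without either vehicle library (adjusted p = 0.0699 and 0.336) or without DB2115 library A (adjusted p = 0.156). ATP5PD shares 340 exon bases with KCTD2 on the other strand, which rose from 19.6 to 31.5 CPM. ATP5PB stood at 0.05 after the GC and length trend was removed.

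Among the small membrane subunits that help ATP synthase form dimers, ATP5MK fell from 88.4 and 79.7 CPM to 50.7 and 44.1 CPM (-0.83, SE 0.08, edgeR adjusted p = 1.34e-06). With the GC and length trend removed ATP5MK stood at -0.73. ATP5ME (-0.58), ATP5MF (-0.48) and ATP5MJ (-0.28) fell as well, and ATP5MG was not called (-0.05). The fall of ATP5MJ was called in 9 of the 13 other settings with a test, and not without vehicle library A, and ATP5MJ stood at 0.01 and ATP5MG at 0.33 after the GC and length trend was removed. That of ATP5F1E was called in 7, and not without vehicle library A, vehicle library B or DB2115 library B. ATP5IF1, the inhibitor that stops ATP synthase from running in reverse, was called higher, at 78.3 and 72.2 CPM in vehicle and 93.2 and 82.4 CPM with DB2115 (0.22, SE 0.07, edgeR adjusted p = 0.0194). Leaving out vehicle library B took its adjusted p to 0.302, and leaving out DB2115 library A took it to 0.231.

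**Figure D3:**
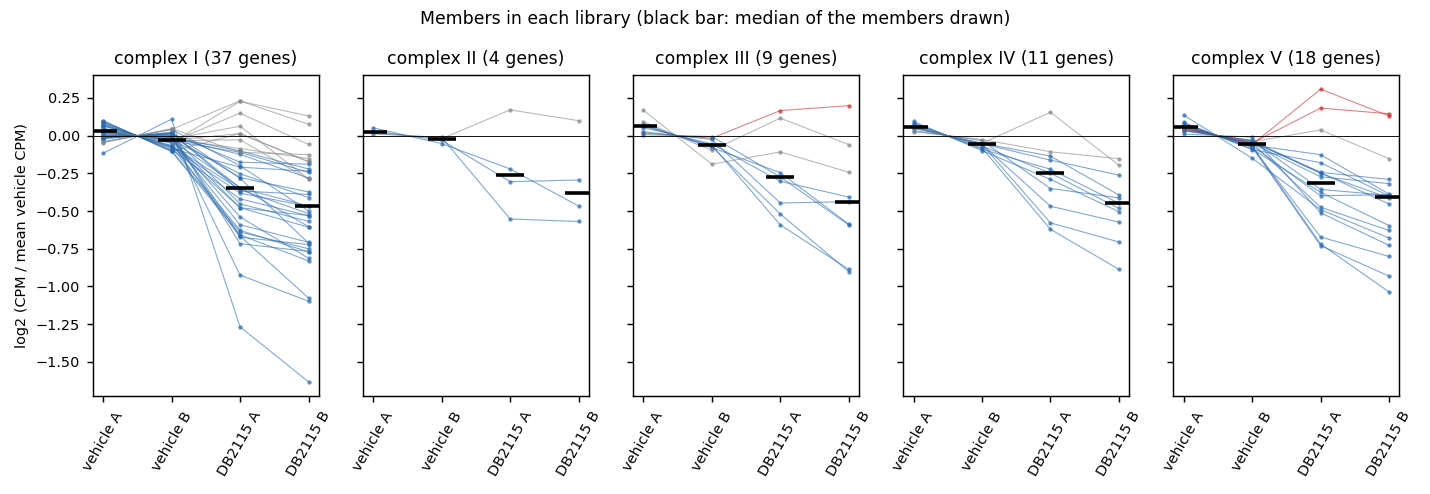
Level of members tested with a mean of at least 1 CPM in each library, as log2 of CPM over the mean vehicle CPM (y axis), by complex and library (x axis); lines join the values of a gene, coloured by call, and black bars are medians of the members drawn. The medians of both DB2115 libraries lie below those of both vehicle libraries in all 5 complexes, and DB2115 library B lies below library A.

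Summed over their members, the complexes had between 14.3% and 20.9% less CPM with DB2115. The sum fell by 17.5% in complex I, from 3308 ± 74.7 to 2731 ± 153 CPM (SD, n = 2), by 15.4% in complex II, 14.3% in complex III, 19.7% in complex IV and 20.9% in complex V. All members together went from 13086 and 12349 CPM to 10759 and 9921 CPM. The sums are weighted by the most abundant genes, of which ATP5F1B alone gives more than any other. In each complex both DB2115 sums lay below both vehicle sums.

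The subunits encoded by mitochondrial DNA were measured in the same libraries. Their sum fell by 35.1%, from 45616 and 51825 CPM to 34223 and 28996 CPM. The fall was unequal, at 50.6% in complex V, 44.0% in complex IV, 23.0% in complex I and 20.0% in complex III. Of the 13 genes, 10 fell (76.9%) and none rose, against 31.3% called lower and 32.7% higher over all genes tested. MT-ATP6, the proton channel subunit, went from 4650 and 5016 CPM to 2600 and 2133 CPM (-1.03, SE 0.09, edgeR adjusted p = 5.96e-07), and MT-ATP8 had a log2 fold change of -0.97. MT-ND1, MT-ND2 and MT-ND3 were not called (0.10, 0.01 and -0.05), whereas MT-ND4 (-0.94) and MT-ND4L (-0.92), subunits of the same complex, fell. The 2 mitochondrial ribosomal RNA genes rose in these libraries, MT-RNR1 from 406 ± 0.701 to 16947 ± 962 CPM and MT-RNR2 from 4910 ± 405 to 21048 ± 1304 CPM. The sources used here do not say how RNA was selected, and the share of such RNA in a library depends on it.

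**Figure D4:**
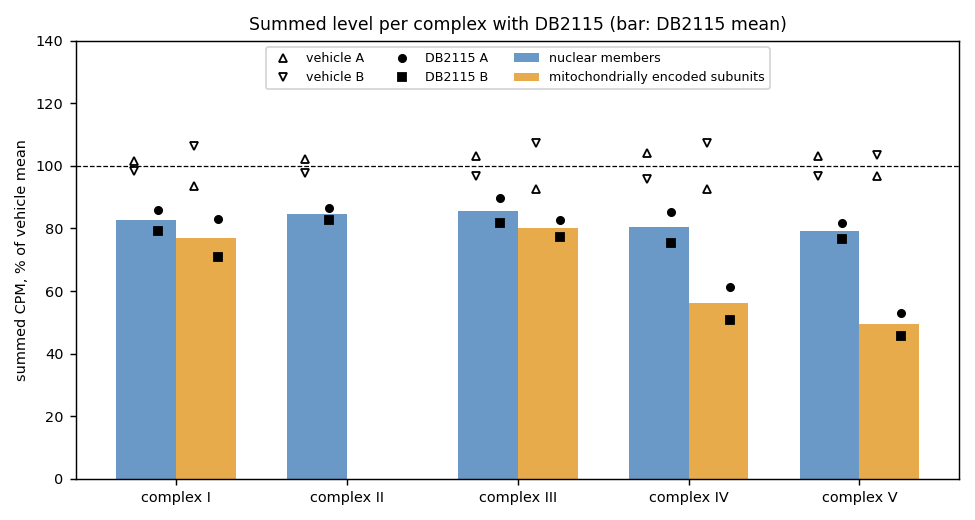
Summed CPM with DB2115 as a percentage of the vehicle mean (y axis), for the nuclear members and for the mitochondrially encoded subunits of each complex (x axis); bars are DB2115 means and points are single libraries. Nuclear sums fell by 14.3% to 20.9%, while mitochondrially encoded sums fell by 20.0% in complex III and by 50.6% in complex V; complex II has no mitochondrially encoded subunit.

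Electron carriers and subunits outside the symbol pattern were also lower, 3 of 4, against 31.3% of all genes tested. CYCS, cytochrome c, went from 374 and 351 CPM to 168 and 155 CPM (-1.16, SE 0.06, edgeR adjusted p = 5.54e-09), a larger fall than that of any member apart from NDUFA4L2. NDUFAB1, the acyl carrier protein that is also a subunit of complex I, went from 96.3 and 88.7 CPM to 45.4 and 42.3 CPM (-1.08, SE 0.07, edgeR adjusted p = 2.97e-08). CYC1, cytochrome c1 of complex III, had a log2 fold change of -0.47.

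Factors that assemble the complexes had a lower median than the subunits. Of 58 assembly factors, 45 fell (77.6%) and 3 rose (5.2%), against 31.3% and 32.7% of all genes tested. The median log2 fold change was -0.68 for the factors, -0.36 for the members and 0.03 for all genes tested. After the GC and length trend was removed it was -0.55, -0.28 and 0.08, in the same order. These differences were not tested. For complex I 15 of 18 fell and none rose (median -0.76). NDUFAF2, a chaperone of late assembly, went from 26.7 and 24.0 CPM to 5.77 and 5.56 CPM (-2.16, SE 0.10, edgeR adjusted p = 1.73e-09). NDUFAF4, which acts on the early peripheral arm, went from 52.6 and 46.7 CPM to 19.4 and 15.1 CPM (-1.53). For complex II 3 of 4 fell, with SDHAF4, which protects free SDHA, at -1.54 and SDHAF3 at -0.98. For complex III 6 of 8 fell (median -0.62). BCS1L, which inserts the Rieske protein UQCRFS1, went from 56.7 and 55.5 CPM to 20.6 and 18.3 CPM (-1.53, SE 0.08, edgeR adjusted p = 3.1e-09). LYRM7, which stabilises the Rieske protein before insertion, had a log2 fold change of -0.75. After the GC and length trend was removed, LYRM7 stood at -0.20 and BCS1L at -1.72.

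For complex IV 19 of 23 assembly factors fell and 2 rose (median -0.69). TMEM177, which acts on the mitochondrially encoded subunit MT-CO2, went from 14.2 and 13.7 CPM to 2.81 and 2.78 CPM (-2.32, SE 0.13, edgeR adjusted p = 6.98e-09). With the GC and length trend removed TMEM177 stood at -2.59. COA4 went from 57.9 and 56.9 CPM to 17.0 and 15.1 CPM (-1.84). SURF1, a factor of heme insertion, rose from 10.7 and 13.0 CPM to 21.5 and 19.3 CPM (0.78, SE 0.11, edgeR adjusted p = 3.98e-05). COX19, of copper delivery, rose less (0.30, edgeR adjusted p = 0.0082), a call lost without vehicle library B (adjusted p = 0.0961). The factors of complex V were divided, with TMEM70 (-1.07), which places the c-ring, and ATPAF2 (-0.50) lower, ATPAF1 higher from 2.08 to 3.07 CPM (0.56, edgeR adjusted p = 0.0385) and 2 of 5 not called. The rise of ATPAF1 was lost by DESeq2 (adjusted p = 0.116), and without vehicle library B (0.179), DB2115 library A (0.0884) or DB2115 library B (0.117). The fall of ATPAF2 was lost without vehicle library B (adjusted p = 0.0983).

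**Figure D5:**
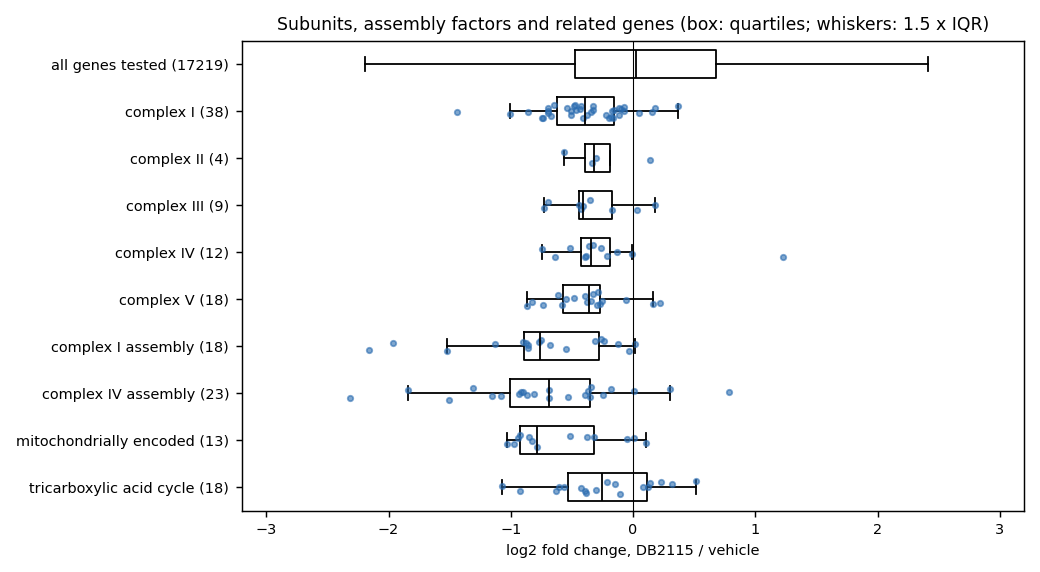
Log2 fold change of DB2115 over vehicle (x axis) for all genes tested, the members by complex, the assembly factors of complexes I and IV, the mitochondrially encoded subunits and the enzymes of the tricarboxylic acid cycle (y axis, number of genes in brackets); boxes are quartiles, whiskers reach at most 1.5 interquartile ranges, and points are single genes, not drawn for all genes tested. Medians are -0.39 for complex I and -0.76 for its assembly factors, against 0.03 for all genes tested.

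The tricarboxylic acid cycle and pyruvate dehydrogenase, which supply the chain with electrons, were more mixed. Of 18 genes, 10 fell (55.6%) and 3 rose (16.7%), with a median log2 fold change of -0.26. Over all genes tested, 31.3% were called lower and 32.7% higher. Among the genes that averaged 20 CPM or more, the shares were 46.3% and 31.6%. The difference from these shares was not tested. FH, fumarase, the step after succinate dehydrogenase, went from 175 and 167 CPM to 93.5 and 86.9 CPM (-0.92, SE 0.06, edgeR adjusted p = 4.79e-08), and DLAT, a core subunit of pyruvate dehydrogenase, had a log2 fold change of -1.07. IDH2, the NADP-dependent isocitrate dehydrogenase, rose from 264 and 248 CPM to 360 and 373 CPM (0.52, SE 0.06, edgeR adjusted p = 7e-06). PDHA1, another subunit of pyruvate dehydrogenase, also rose (0.23, edgeR adjusted p = 0.00553), which did not hold without vehicle library B (adjusted p = 0.137).

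Of 15 regulators of mitochondrial biogenesis, 9 fell (60%) and 3 rose (20%). The shares were 31.3% and 32.7% over all genes tested, and 46.3% and 31.6% among the genes that averaged 20 CPM or more. NRF1, whose core letters are marked in the promoters above, fell from 28.8 and 26.0 CPM to 21.0 and 21.1 CPM (-0.38). For GABP, the ETS factor of these promoters, the DNA-binding subunit GABPA was not called (0.11). Its partner GABPB1 fell from 27.7 and 28.3 CPM to 8.65 and 7.39 CPM (-1.80), while the paralog GABPB2 rose from 55.3 and 55.4 CPM to 80.6 and 82.8 CPM (0.56). YY1 was not called (-0.06). The factors of mitochondrial transcription were lower, TFB1M by 1.78, TFB2M at -1.49, POLRMT, the mitochondrial RNA polymerase, at -0.91 and TFAM, which packs and activates mitochondrial DNA, at -0.48. The value of TFAM was 0.03 after the GC and length trend was removed. MYC fell from 564 and 543 CPM to 24.3 and 19.4 CPM (-4.66). SP1 rose (0.43), and so did ESRRA (0.35), the estrogen-related receptor that acts with PGC-1 coactivators, although ESRRA stood at -0.14 after that correction. Of the coactivators, PPARGC1B (-0.54) and PPRC1 (-1.02) fell and PPARGC1A stayed below 1 CPM.

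Many members share a start region with another gene on the opposite strand. Within 1000 bases, 26 pairs of a tested member with a partner of at least 5 CPM were found. Of the 18 in which the member fell, the partner fell in 8, rose in 3 and was not called in 7. Over all genes tested 31.3% were called lower, and 46.3% of the genes that averaged 20 CPM or more. Whether partners change with their members was not tested. The pairs that fell together included NDUFS6 with MRPL36, a mitochondrial ribosomal protein gene, whose starts lie 34 bases apart (-0.70 and -1.15), SDHD with TIMM8B, of mitochondrial import, 25 bases apart (-0.34 and -1.13), and ATP5MK with PDCD11, of ribosome biogenesis, 134 bases apart (-0.83 and -1.40). In ATP5MJ and TDRD9, 193 bases apart, the member fell (-0.28) and the partner went from 0.0242 to 13.6 CPM. In NDUFA3 and OSCAR, 36 bases apart, the member fell (-0.67) and the partner, an immune receptor gene, rose (1.96). NDUFV3, whose partner WDR4 fell by 1.81 on the log2 scale, was itself not called (0.15). The pairs named here were picked with their values in view. Of the tested members, 13 share at least 5% of their exon bases with an opposite-strand gene of at least 5 CPM, and since the sources used here do not give the strandedness of the counts, such reads cannot be assigned with certainty.

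The 8 members that were not tested had few or no counts. They were COX4I2, COX6A2 and COX7B2 with none, COX6B2, COX8C and the ATP5MG copy ATP5MGL with at most 8 counts per library, and the readthrough genes NDUFC2-KCTD14 and ATP5MF-PTCD1. The annotated pseudogenes of 49 members, 188 in all, held counts equal to 0.61% of the members' own counts in vehicle and 0.733% with DB2115.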

How the data were processed

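RNA-seq counts of MOLM-13 cells with DB2115 or vehicle were used. The authors deposited raw read counts per gene, not normalised, for 58381 Ensembl identifiers in 6 columns. Per the submitters' processing notes, FastQC, STAR, DESeq2 and build hg38 were used; the sources used here give no version, counting tool or strandedness. Of the columns, 2 hold sums of the others and were left out, which leaves 2 libraries per group of 36547900 to 42446253 counts. Columns carry letters that match no replicate number.

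Symbols and coordinates came from GENCODE 29 (58261 identifiers matched) and current gene names, promoter windows from RefSeq (GRCh38.p14). Counts were filtered with filterByExpr (minimum count 10, minimum total 15), scaled by TMM and tested with edgeR 4.0.16 (glmQLFTest, treatment only) in R 4.3.3, with Benjamini-Hochberg adjustment over 17219 genes. Levels are CPM, mean ± SD. The GC and length trend was fitted by loess (span 0.5) on the longest GENCODE 29 transcript of each gene, a protein-coding one where the gene had any. Alternatives were other scalings and filters, DESeq2 1.42.0, limma 3.58.1 (voom), a block on the column letters and each library left out. Intervals and floors of 3 counts cover counting error only.

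Named were, per complex, up to 3 called members in each direction by adjusted p and up to 2 by size with at least 5 CPM, the SDH, complex I core, isoform and c-ring genes, and up to 2 per list and direction. Other names were added after their values were seen. The members and lists were chosen with earlier results of these data known. A member and a marker gene are counted but not reported by name here.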

Additional observations from a re-analysis of the deposited data

How the results depend on the processing

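Of the 61 falls 49, and of the 4 rises 1, were called alike in all 13 settings with a test, and no call of a member turned direction. The number of members called lower was 51 with upper-quartile factors and 52 with total counts or the 1 CPM filter. The number called higher was 7 with upper-quartile factors, total counts or a filter of 1 CPM in 3 libraries, and 2 to 5 with a library left out. The median over all members was -0.266 with upper-quartile factors and -0.267 with total counts, which moved the median of all genes from 0.026 to 0.121, and -0.454 without DB2115 library A. With upper-quartile factors the medians of complexes I, II and V were -0.297, -0.225 and -0.266, with total counts -0.298, -0.225 and -0.266, and with the 1 CPM filter -0.31, -0.237 and -0.279. Leaving out a library gave a range of -0.454 to -0.289 for the median of all members, -0.484 to -0.324 for the median of complex I, -0.397 to -0.274 for the median of complex II, -0.454 to -0.285 for the median of complex III, -0.447 to -0.247 for the median of complex IV, -0.423 to -0.325 for the median of complex V and 52 to 65 for the members called lower. With the GC and length trend removed the medians of complexes I, II and III were -0.285, -0.194 and -0.207, and 60 of 81 members were below 0. The median of all genes was then 0.076. The sign turned in 15 members, 8 of them called lower: NDUFA5 (0.03), NDUFB9 (0.09), COX7C (0.22), ATP5F1E (0.30) and ATP5MJ (0.01), besides NDUFA4, SDHD and ATP5PB. Of the others, NDUFB3, NDUFB5, COX7A2L and ATP5MG had not been called. Values were SDHD (0.111), UQCRC1 (-0.173), NDUFS1 (0.078), NDUFS8 (-0.29), NDUFA4 (0.17) and ATP5PB (0.052). COX8A turned to 0.084 with upper-quartile factors, 0.083 with total counts, 0.071 with the 1 CPM filter, and lay between -0.213 and 0.145 with a library left out (0.031 without vehicle library A). UQCRHL lay between -0.364 and 0.004 and NDUFS8 between -0.075 and 0.139 with a library left out (-0.014 without vehicle library B). The causes were not tested. As raw count shares rather than shares per kilobase, UQCRHL stood at 1.57% in vehicle and 1.78% with DB2115 (0.44% and 0.499% per kilobase), and NDUFA4L2 at 6.9% and 3.31% (11.8% and 5.79% per kilobase). With the column letter as replicate block, the 61 falls and 4 rises stayed called and 64 members in all were lower and 6 higher, with SDHC (0.135, adjusted p = 0.0217) and NDUFB1 added as higher and NDUFS1 (-0.118, adjusted p = 0.0389), NDUFA2 and COX7A2L added as lower. It changed no other call of a member. The letters are not replicate numbers, and the pairing rests on nothing more. The deviations of vehicle library A and DB2115 library A had a correlation of 0.034, with 2 lettered pairs of libraries in all. With 2 libraries per group, a fit without a library assumes that the lone library varies like the others.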
